A study of Mus musculus with 19 samples.

Results

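The muscarinic and nicotinic acetylcholine receptor genes Chrm1, Chrm2, Chrm3, Chrm4, Chrna3, Chrna4, Chrna7, Chrnb2 and Chrnb4 were followed across the day in spinal cord cholinergic neurons. They were taken by symbol from a table of 50559 genes, in which all 9 were found. Of these, 4 encode muscarinic receptors and 5 encode subunits of nicotinic receptors. Chrm2 and Chrnb2 were the abundant transcripts of the set, and 6 of the 9 genes were at least 2-fold lower on cholinergic ribosomes than in the spinal cord as a whole, as were 24.3% of all genes compared. None of the 7 members tested passed the tests for a daily rhythm, which 6.24% (cosine fit) and 0.0385% (rank test) of all genes passed. Chrna7 and Chrnb2 were called higher at ZT16 than at ZT8, calls that were lost when single libraries were left out. Of all genes, 16.9% were called for this pair, and 9.11% were called higher at ZT16.

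Acetylcholine acts on muscarinic receptors, which signal through G proteins, and on nicotinic receptors, which are ion channels built of 5 subunits. The M1 and M3 receptors (Chrm1, Chrm3) couple mainly to Gq and phospholipase C, whereas the M2 and M4 receptors (Chrm2, Chrm4) couple to Gi and Go, which lower cyclic AMP and open potassium channels. Among nicotinic subunits, α4 and β2 (Chrna4, Chrnb2) assemble into the common high-affinity receptor of the brain, α3 and β4 (Chrna3, Chrnb4) into the receptor of autonomic ganglia, and α7 (Chrna7) into a channel made of that subunit alone. On spinal motor neurons, M2 receptors lie opposite the C boutons, large cholinergic terminals of spinal interneurons that raise motor neuron excitability.

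The samples came from 10-wk-old male C57BL/6J mice of the genotype ChAT-Cre;RiboTag fx/+, labelled wild-type and kept on a 12:12 h light and dark cycle. In these animals the ChAT gene drives Cre, and Cre places a hemagglutinin (HA) tag on a ribosomal protein, so that precipitating the tag (HA-IP) recovers mRNA on the ribosomes of cells that express or have expressed ChAT, motor neurons and other cholinergic neurons alike. HA-IP was performed at ZT0, ZT4, ZT8, ZT12, ZT16 and ZT20 (Zeitgeber time, hours after lights on) with 3 biological replicates each, and the 18 HA-IP libraries were accompanied by 1 library of pooled input, that is, homogenate before precipitation. The input carries the same label for its cell type as the HA-IP samples, but its markers are those of whole spinal cord.

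Total counts lay between 6302150 and 22406844 in the HA-IP libraries, and the input held 15239792. Of 7 markers of cholinergic neurons, 6 were at least 2-fold higher in the HA-IP libraries than in the input, and the summed level of the 7 was 4252 to 5088 CPM, in which counts are divided by the TMM-scaled size of the library, against 444 CPM in the input. All markers of oligodendrocytes (7), astrocytes (6), microglia (6) and endothelial cells (4) were at least 2-fold lower, yet none was at 0 in every library, and the summed oligodendrocyte markers were still at 1533 to 2932 CPM against 21020 CPM in the input. Of the markers of other neurons, 3 of 4 inhibitory and 3 of 3 excitatory were depleted in the same way, as was 1 of 4 for skeletal muscle. The inhibitory markers still summed to 247.5 to 344.8 CPM against 795.4 CPM in the input, and the excitatory ones to 47.5 to 85.3 CPM against 176.7 CPM. The leading axis of variation among the HA-IP libraries (the first principal component of 9214 genes) held 52.8% of the variance. Its highest values were those of replicates 2 and 3 of ZT8, at 42.6 and 29.7, whereas replicate 1 of ZT8 was at 5.03. Replicates 1 and 2 of ZT16 were at -20.1 and -27.9, whereas replicate 3 of ZT16 was at 2.81. ZT8 replicate 1 therefore differed from the other ZT8 libraries, and ZT16 replicate 3 from the other ZT16 libraries. The calls that rest on ZT8 are given with and without single libraries.

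Chrm2, encoding the M2 receptor, spans chr6:36388084-36528414 on the plus strand (GRCm38, the assembly also called mm10). Its level in the 18 HA-IP libraries ranged from 48.3 to 89.7 CPM with a median of 62.0, and averaged 63.8 ± 12.6 CPM (SD, n = 18). The input held 48.4 CPM (925 counts, 95% Poisson interval 45.3 to 51.6, which like all such intervals here covers counting error only), and 17 of 18 HA-IP libraries lay above it. The mean was 1.32-fold that of the input (1.24 to 1.41 for the counting error of the input), and the spread of the HA-IP libraries reached down to the input level. With DESeq2 size factors 14 of 18 libraries, and with library totals 9 of 18, lay above the input.

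Chrm4, the other Gi-coupled member, spans chr2:91927249-91928688 and was measured at 0.163 to 2.24 CPM (median 1.34), a mean of 1.32 ± 0.614 CPM (SD, n = 18) from 345 counts in all. All 18 libraries lay below the input, which held 2.93 CPM (56 counts, interval 2.21 to 3.80). The mean was 2.22-fold lower than the input. The annotated Chrm4 transcript used here for length holds the coding sequence alone, and the RefSeq gene overlaps Mdk by 31 bp.

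Like Chrm4, the Gq-coupled members were scarce, and Chrm3 had a higher mean in CPM than Chrm4. Chrm3 (chr13:9875486-10360847, minus strand) was present at 0.552 to 4.22 CPM (median 2.39) and averaged 2.60 ± 0.860 CPM (SD, n = 18), whereas the input held 11.2 CPM (214 counts, interval 9.74 to 12.8). Chrm1 (chr19:8663789-8683587, plus strand) gave 26 counts over 18 HA-IP libraries, with 0 counts in 7 of them, against 19 counts in the input alone. All 18 libraries lay below the input for both genes, Chrm3 being 4.30-fold and Chrm1 10.8-fold lower. M1 is the muscarinic receptor best known from cortical and hippocampal neurons.

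Chrna4 (chr2:181018380-181043546, minus strand), the α4 subunit, ranged from 11.2 to 18.8 CPM with a median of 16.3 and averaged 15.6 ± 2.59 CPM (SD, n = 18). The input held 46.3 CPM (885 counts, interval 43.3 to 49.5), so that Chrna4 was 2.98-fold lower in the HA-IP libraries, and the highest of the 18 remained well below the input. Chrnb2 (chr3:89746195-89764632, minus strand), the β2 subunit with which α4 assembles, went the other way. It ranged from 59.0 to 91.4 CPM (median 78.7) and averaged 76.0 ± 7.92 CPM (SD, n = 18), whereas the input held 49.3 CPM (943 counts, interval 46.2 to 52.6). All 18 libraries lay above the input (17 of 18 with library totals), and the ratio of the means was 1.54 (1.45 to 1.65).

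Chrnb2 and Adar, an RNA-editing enzyme gene on the opposite strand, share 1365 bp of annotated exons in GENCODE, whereas their RefSeq spans share 8 bp. The library kit marks strand, but whether the counting used strand is not given in the sources used here, so reads over the shared bases could belong to either gene. Adar averaged 113 ± 7.26 CPM (SD, n = 18) over the HA-IP libraries, the input having 127 CPM, a log2 ratio of -0.17 against 0.62 for Chrnb2.

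The remaining nicotinic members were near the limit of detection. Chrna3 (chr9:55010111-55026562, minus strand) was at 1.67 ± 0.809 CPM (SD, n = 18; 0.556 to 4.14, median 1.51) and the input at 2.09 CPM (40 counts, interval 1.495 to 2.85). Of the 18 libraries 14 lay below the input and 4 above it, so the HA-IP and input levels of Chrna3 overlapped. Its highest value, 4.14 CPM, was that of ZT8 replicate 1. The RefSeq spans of Chrna3 and Chrna5, on opposite strands, overlap by 1304 bp.

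Chrna7 (chr7:63098692-63212569, minus strand) gave 152 counts over all 18 HA-IP libraries, less than 1 CPM in most, against 127 counts in the input. Its mean was 0.584 ± 0.524 CPM (SD, n = 18) and the input was at 6.64 CPM (interval 5.54 to 7.90), which is 11.4-fold higher. Chrnb4 (chr9:55028154-55048779, minus strand) gave 83 counts, with 0 counts in 4 libraries, and had a mean of 0.323 ± 0.263 CPM (SD, n = 18), the input having 0.837 CPM (16 counts, interval 0.478 to 1.36). Every HA-IP library lay below the input for both genes.

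**Figure D1:**
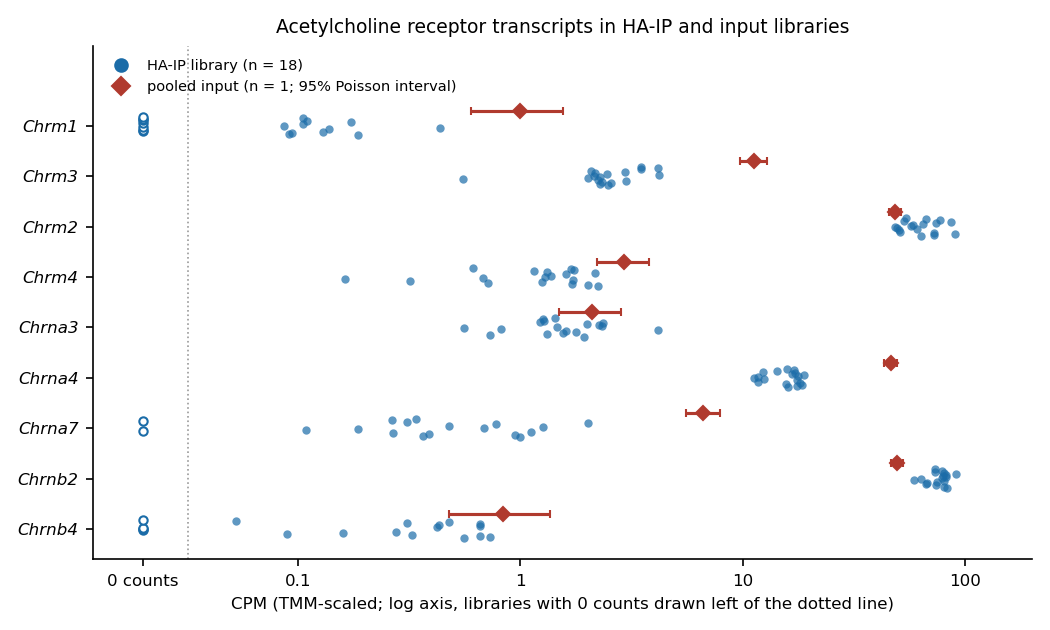
Level of each receptor gene in CPM (log axis) in the 18 HA-IP libraries (blue) and in the pooled input (red diamond, bar: 95% Poisson interval); open circles at the left are libraries with 0 counts. Chrnb2 lay above the input in all 18 libraries and Chrm2 in 17 of 18, Chrna3 on either side of it, and the other 6 genes below it in all 18.

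A gene was counted as enriched or depleted where the means differed at least 2-fold from the input and all 18 HA-IP libraries lay on the same side. By this rule 0 of 9 members were enriched, while 15.2% of the 16828 genes compared were, and 6 of 9 members were depleted (Chrm1, Chrm3, Chrm4, Chrna4, Chrna7 and Chrnb4), while 24.3% of all genes were. Regardless of size, all 18 HA-IP libraries lay above the input for 1 member (27.9% of all genes) and below it for 6 (34.0% of all genes). With 1 input library no test was made. The same 6 members were depleted with DESeq2 size factors and with library totals, and Chrnb2 was the member that counted as enriched when the threshold was lowered to 1.5-fold. The median log2 ratio of all genes compared was -0.09, and library totals moved it by -0.35, whereas the median over the members was -1.38. In bulk samples fewer cells of a type and less RNA per cell cannot be told apart. The markers of glia and of other neurons that remained in the HA-IP libraries are given above. The part of these cells in the low levels of the 6 depleted members was not tested.

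Levels of different genes were compared after division by the summed exon length, in CPM per kb. On this scale Chrm2 was the highest member at 10.5 ± 2.08 CPM per kb (SD, n = 18), followed by Chrnb2 at 9.07 ± 0.945 and Chrna4 at 3.10 ± 0.516. The order of Chrm2 and Chrnb2 was not firm, since Chrm2 was higher in 15 of 18 libraries by summed exons but in 6 of 18 by the longest transcript. Chrnb2 exceeded Chrna4, and Chrna4 exceeded Chrm4 (0.916 ± 0.426 CPM per kb), in 18 of 18 libraries under either length. Below these, each neighbour in the order overlapped the next. Chrm4 exceeded Chrm3 (0.416 ± 0.138) in 15 of 18 libraries by summed exons, which for Chrm4 are coding sequence alone, and in 12 of 18 by the longest transcript, whereas before division by length Chrm3 had the higher mean (2.60 against 1.32 CPM). By summed exons Chrm3 exceeded Chrna3 (0.317 ± 0.154) in 15 libraries, Chrna3 exceeded Chrna7 (0.130 ± 0.116) in 17, Chrna7 exceeded Chrnb4 (0.0866 ± 0.0707) in 12, and Chrnb4 exceeded Chrm1 (0.0142 ± 0.0166) in 13. In the input Chrna4 led with 9.22 CPM per kb, ahead of Chrm2 with 7.99 and Chrnb2 with 5.89.

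The balance between subunits was not that of the spinal cord. The Chrnb2 to Chrna4 ratio per kb was 2.99 ± 0.512 (SD, n = 18; range 2.25 to 4.03) in the HA-IP libraries and 0.639 in the input, and all 18 libraries lay above the input. Such a ratio is taken within a library and does not depend on library scaling. Chrnb2 made up 71.6% ± 3.24 (SD, n = 18) of the summed CPM per kb of the 5 nicotinic members, against 34.2% in the input, and Chrna4 made up 24.4% ± 2.92 against 53.6%. Among the 4 muscarinic members Chrm2 made up 88.8% ± 2.90 (SD, n = 18; range 84.0 to 94.2), against 66.8% in the input. Chrm3 made up 3.59% ± 1.26 of this sum against 14.95% in the input, and Chrm4 7.48% ± 3.03 against 17.0%. These shares of Chrm4 rest on its coding-only length, and of the summed counts, without division by length, Chrm3 held 3.92% ± 1.37 (17.6% in the input) and Chrm4 1.903% ± 0.802 (4.61% in the input), in the opposite order. The ratio of Chrm2 to Chrm3 per kb had a median of 26.3 in the HA-IP libraries (range 14.2 to 114) and was 4.465 in the input. Its highest value, in ZT8 replicate 1, rested on 8 counts of Chrm3.

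**Figure D2:**
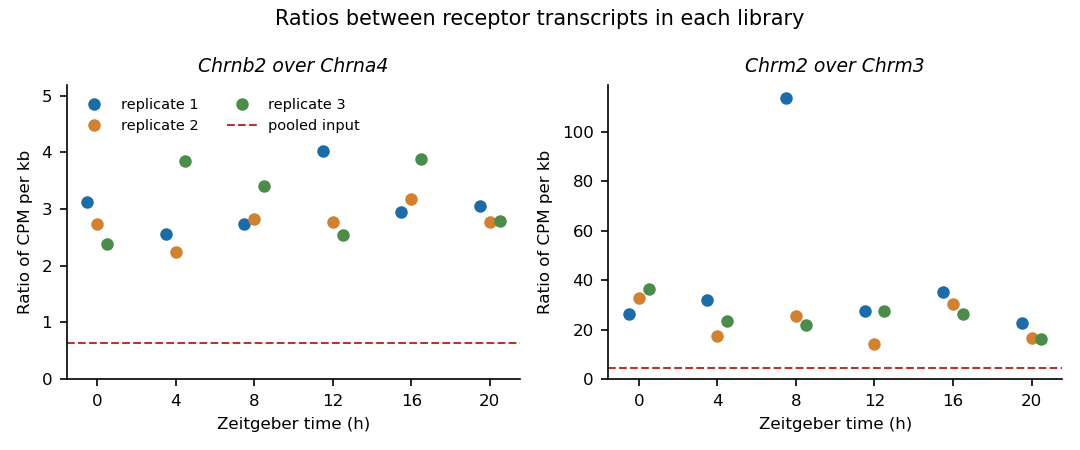
Ratio of CPM per kb of Chrnb2 to Chrna4 (left) and of Chrm2 to Chrm3 (right) in each HA-IP library by Zeitgeber time, coloured by replicate number, with the ratio in the pooled input as a dashed line (0.639 and 4.465). All 18 libraries lay above the input in both panels, and no time point stood apart on the left, where the lowest ratio was 2.25.

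The receptor genes outside the set were also near the limit of detection. None of the 12 others (Chrm5, Chrna1, Chrna2, Chrna5, Chrna6, Chrna9, Chrna10, Chrnb1, Chrnb3, Chrnd, Chrne and Chrng) passed the filter on low counts. The highest of them per length were Chrnb1 at 0.102 ± 0.0947 and Chrna5 at 0.0888 ± 0.108 CPM per kb (SD, n = 18), means that differed from that of Chrnb4 by less than their spread and lay above that of Chrm1. Chrm5, the fifth muscarinic receptor, had 0 counts in all 18 HA-IP libraries and 14 counts in the input (0.732 CPM, interval 0.400 to 1.23). The input value was 64.0-fold a floor of 3 counts over the 18 libraries, a ratio that leaves out the counting error of the input. Chrna2, an α subunit known as a marker of Renshaw cells, the inhibitory interneurons that motor axons contact, had 85 counts in the 18 libraries and 49 in the input, an 8.02-fold lower level. Chrna1, the α subunit of the muscle receptor, had 51 counts in the HA-IP libraries and 0 in the input. Markers of skeletal muscle summed to between 1.00 and 146 CPM among the HA-IP libraries, against 91.75 CPM in the input. The highest sum was at ZT16, where Chrna1 had 2 counts. Chrna1 had 18 counts at ZT0 and 18 at ZT4, where the sums were 5.855 to 29.0 CPM and 3.96 to 84.45 CPM. The part of muscle in the Chrna1 counts was not tested.

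Variation over the day was asked of the 7 members that passed the filter of sufficient counts (Chrm1 and Chrnb4 did not). A 24-h cosine curve was fitted with edgeR, and a gene was called at a Benjamini-Hochberg adjusted p under 0.05 over all 15572 genes tested. None of the 7 was called (6.24% of all genes were), and 2 of 7 had an unadjusted p under 0.05 (26.7% of all genes). DESeq2 called 0 of the 3 members to which it gave an adjusted p (Chrm2, Chrna4 and Chrnb2). Chrm2 had a fitted amplitude of 0.21 on the log2 scale with a peak at ZT20.2 (edgeR adjusted p = 0.157), a 1.34-fold difference between peak and trough. Chrnb2 had an amplitude of 0.13 with a peak at ZT17.2 (edgeR adjusted p = 0.166), a 1.19-fold difference. Without ZT20 replicate 3, Chrm2 was called with an amplitude of 0.26 (edgeR adjusted p = 0.0419), a fit in which 2668 genes were called in place of 972. Among fits that left out 1 library, calls over all genes fell as low as 2, without ZT0 replicate 2 or ZT12 replicate 1. They were 3 with a score of oligodendrocyte markers as a covariate. Where so few genes were called, 0 calls of members could not decide whether a member had a rhythm. In the fit to all 18 libraries, the other 5 members had amplitudes between 0.09 (Chrna4) and 0.59 (Chrna7) and adjusted p of 0.386 or more in edgeR.

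Any difference among the 6 time points was called for 0 of 7 members by edgeR (6.74% of all genes) and for 0 by DESeq2, which gave 5 members an adjusted p, with 1 of 7 at an unadjusted p under 0.05 (23.7% of all genes). This was Chrna7 (edgeR adjusted p = 0.175). Without ZT8 replicate 1, Chrnb2 was called, in a fit where 2454 genes were called in place of 1050. JTK_Cycle, a rank test with periods of 20, 24 and 28 h, called 0 of 7 (0.0385% of all genes). By its p within the gene, before adjustment over genes, Chrnb2 was past 0.05 (JTK_Cycle exact p = 0.0377, adjusted p = 0.241), as were 15.9% of all genes.

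In the light period Chrm2 started at ZT0 with 63.2, 72.5 and 89.7 CPM in its 3 libraries, then read 72.1, 51.0 and 50.5 CPM for ZT4 and 60.8, 49.6 and 48.3 CPM for ZT8. From lights off it read 57.2, 58.2 and 64.8 CPM for ZT12, 74.1, 86.3 and 53.1 CPM for ZT16 and 76.8, 66.6 and 54.3 CPM for ZT20. The means were highest at ZT0 (75.1 ± 13.5 CPM, SD, n = 3) and lowest at ZT8 (52.9 ± 6.87), and the ZT0 and ZT8 libraries did not overlap. ZT16 and ZT20 spread widely, with replicate 3 the lowest at both, and overlapped ZT8.

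Chrnb2 gave 83.2, 80.4 and 73.6 CPM for ZT0, 66.6, 67.6 and 74.9 CPM for ZT4 and 80.0, 59.0 and 63.7 CPM for ZT8 (replicates in order of number). In the dark period it gave 78.8, 82.0 and 79.9 CPM for ZT12, 81.9, 91.4 and 80.3 CPM for ZT16 and 73.0, 78.6 and 73.5 CPM for ZT20. The means ran from 67.6 ± 11.0 CPM (SD, n = 3) at ZT8 to 84.5 ± 6.01 at ZT16. All ZT16 libraries lay above all ZT8 libraries, although ZT8 replicate 1 came within 1 CPM of the lowest ZT16 library.

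Chrna7 was read in counts, since its levels were low. The light-period libraries held 16, 4 and 20 counts for ZT0, 6, 6 and 7 for ZT4 and 0, 2 and 3 for ZT8. The dark-period libraries held 8, 12 and 8 counts for ZT12, 9, 37 and 4 for ZT16 and 0, 5 and 5 for ZT20. The mean relative to depth was lowest at ZT8, at 0.0980 ± 0.0931 CPM (SD, n = 3), although ZT20 replicate 1, with 0 counts, lay below replicates 2 and 3 of ZT8. Of the 50 counts at ZT16 replicate 2 held 37, which gave 1.035 ± 0.885 CPM at that time.

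**Figure D3:**
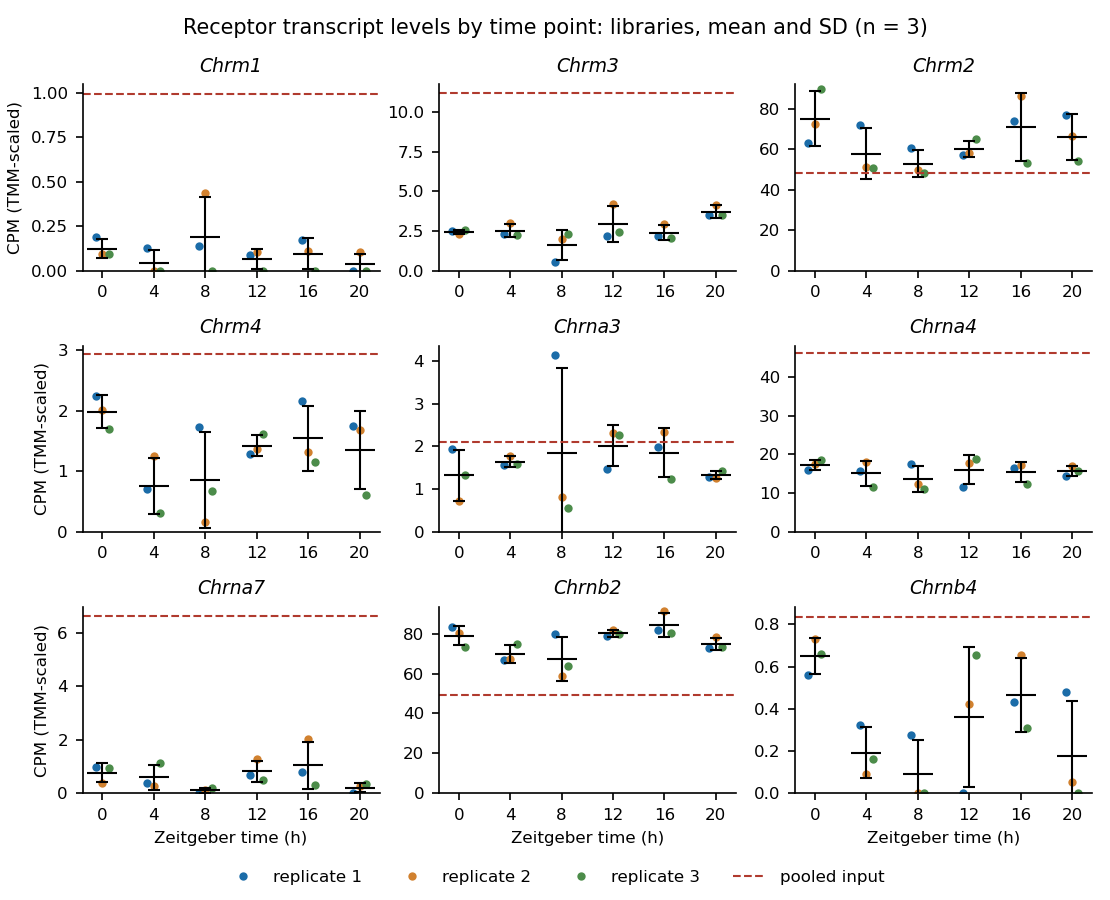
Level of the 9 receptor genes in CPM by Zeitgeber time: points are HA-IP libraries coloured by replicate number, black bars the mean and SD of 3 libraries (cut at 0), and the dashed line the pooled input. Each panel starts at 0 and has its own scale. Chrm2 and Chrnb2 were lowest on average at ZT8 (52.9 and 67.6 CPM), and Chrna7 held 5 counts in all at ZT8 against 50 at ZT16.

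In pairwise comparisons of time points, 2 of 7 members were called in any of the 15 pairs (21.4% of all genes were), both for ZT16 against ZT8 and in the direction of ZT16. For this pair 16.9% of all genes were called, and 9.11% of all genes were called higher at ZT16. Chrna7 was higher at ZT16 by 3.28 on the log2 scale (SE 1.00, interval 1.19 to 5.36, edgeR adjusted p = 0.0299). Chrnb2 was higher by 0.32 (SE 0.11, interval 0.09 to 0.55, edgeR adjusted p = 0.0496), a 1.25-fold difference. Chrm2 was higher by 0.42 (SE 0.18, edgeR adjusted p = 0.108) and was not called. The other 4 members had adjusted p of 0.388 or more in edgeR.

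Both ZT16 against ZT8 calls were lost under other settings. Chrna7 was no longer called when ZT8 replicate 1, 2 or 3 was left out (edgeR adjusted p = 0.0703, 0.120 and 0.0629) or when ZT16 replicate 1 or 2 was (edgeR adjusted p = 0.0683 and 0.238), and it was called in the 13 fits that left out any other library. Its difference was 2.79, 3.35 and 3.97 without ZT8 replicate 1, 2 or 3, 3.46 without ZT16 replicate 1 and 2.32 without ZT16 replicate 2. The adjusted p of Chrnb2 lay at the threshold. Chrnb2 was no longer called with DESeq2 size factors (edgeR adjusted p = 0.0504), with filters of 10 or 1 counts (edgeR adjusted p = 0.0576 and 0.0832) or with a score of oligodendrocyte markers as a covariate (edgeR adjusted p = 0.0811), its difference being 0.30 to 0.33 in these. Nor was it called in 15 of the 18 fits that left out 1 library, with edgeR adjusted p from 0.0558 to 0.242 and differences from 0.24 to 0.35. It was called without ZT8 replicate 1, ZT4 replicate 3 or ZT16 replicate 3. Chrm2 was called without ZT8 replicate 1 (0.54, edgeR adjusted p = 0.0490), without ZT16 replicate 3 (0.60, edgeR adjusted p = 0.0175), with the filter of 1 count (0.44, edgeR adjusted p = 0.0133) and with the oligodendrocyte score (0.56, edgeR adjusted p = 0.0227). Over all genes, calls rose from 2633 to 3885 without ZT8 replicate 1 and to 3409 without ZT16 replicate 3. They were 3003 with the filter of 1 count and 2605 with the oligodendrocyte score. They fell to 87 without ZT8 replicate 2 and to 72 without ZT16 replicate 2. DESeq2 called Chrnb2 (adjusted p = 0.0294), did not call Chrm2 for this pair, and gave no adjusted p for Chrna7.

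Of the 7 cholinergic markers, 5 were also called higher at ZT16 than at ZT8 in edgeR, and their summed level was 4259 to 4749 CPM at ZT8 and 4695 to 5088 CPM at ZT16. The log2 levels of Chrm2, Chrnb2 and Chrm4 followed the leading axis of variation with Pearson's r of -0.83, -0.80 and -0.79 over the 18 libraries, a description over libraries that share time points. The part of these shifts in the differences of Chrm2, Chrnb2 and Chrna7 was not tested.

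ZT8 against ZT0 called 0 of 7 members in edgeR (18.0% of all genes), 2 of 7 at an unadjusted p under 0.05 (31.6% of all genes) and 1 in DESeq2, which gave 4 of the 7 an adjusted p. Chrm2 was lower at ZT8 by a log2 difference of -0.50 (SE 0.18, interval -0.87 to -0.13, edgeR adjusted p = 0.0574), and DESeq2 called it with a difference of -0.49 (adjusted p = 0.0338). Chrna7 differed by -2.85 (SE 1.00, edgeR adjusted p = 0.0538). Leaving out ZT8 replicate 1 gave 4 calls, all lower at ZT8, Chrm2 (-0.62, edgeR adjusted p = 0.0246), Chrm4 (-2.24, edgeR adjusted p = 0.0227), Chrnb2 (-0.37, edgeR adjusted p = 0.0155) and Chrnb4, which then passed the filter, while the calls over all genes rose from 2798 to 4010. Chrm2 was also called without ZT4 replicate 1, ZT16 replicate 2, ZT16 replicate 3 or ZT20 replicate 3 (edgeR adjusted p = 0.0441, 0.0458, 0.0283 and 0.0482), none of which belongs to the pair compared.

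Within ZT8, replicate 1 lay above both other replicates for 6 of the 9 members. This count has no share over all genes beside it, and ZT8 replicate 1 stood apart on the leading axis. Chrna3 was at 4.14 CPM against 0.815 and 0.556, and Chrm4 at 1.73 against 0.163 and 0.680. Chrna4 was at 17.5 CPM against 12.5 and 11.2, and Chrnb4 had 4 counts against 0 and 0. Chrm3 went the other way, with 0.552 CPM against 2.01 and 2.29, as did Chrna7 with 0 counts against 2 and 3. Chrm1 had 2 counts against 8 and 0.

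Chrm3, the M3 receptor, had its highest mean at ZT20. The libraries read 3.50, 4.16 and 3.48 CPM at ZT20, from 22, 79 and 51 counts, and 0.552, 2.01 and 2.29 CPM at ZT8, from 8, 37 and 37 counts. The ranges did not overlap, and the difference was 1.18 on the log2 scale (SE 0.41, interval 0.33 to 2.04, edgeR adjusted p = 0.106). For ZT20 against ZT8, edgeR called 0 of 7 members and 0 genes in all, with 1 of 7 members and 22.3% of all genes at an unadjusted p under 0.05, whereas DESeq2 called 1122 genes and 0 of the 3 members to which it gave an adjusted p, Chrm3 not among them. In the 18 fits that left out 1 library the adjusted p of Chrm3 in edgeR stayed between 0.0919 and 0.354.

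Chrna4 varied little over the day. Its time point means lay between 13.7 ± 3.31 CPM at ZT8 and 17.35 ± 1.26 at ZT0 (SD, n = 3), and its largest log2 difference in any pair was -0.33 (ZT8 against ZT0, edgeR adjusted p = 0.275). Chrna3 ranged from 1.32 ± 0.0943 CPM at ZT20 to 2.02 ± 0.480 at ZT12 (SD, n = 3) and Chrm4 from 0.760 ± 0.466 at ZT4 to 1.98 ± 0.272 at ZT0. Neither was called in any pair, and at 437 and 345 counts over 18 libraries, differences of the size seen for Chrnb2 were not detectable for them at this depth.

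**Figure D4:**
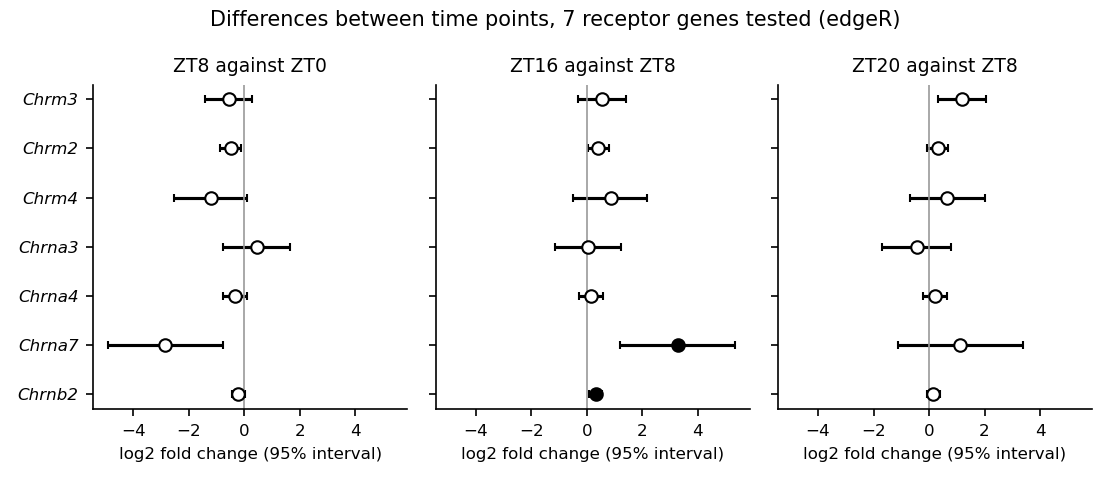
Log2 fold change with its 95% interval for the 7 receptor genes tested, in 3 comparisons of time points (edgeR; filled points have an adjusted p under 0.05, positive values are higher at the time named in front). Only Chrna7 (3.28) and Chrnb2 (0.32) at ZT16 against ZT8 are filled among the comparisons drawn.

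RefSeq promoter windows on GRCm38.p6 were found for 8 of the 9 members, and the 250 bases before each start were searched on both strands for 4 motifs known from promoters of clock-controlled genes. These were the E-box CACGTG (in 6.02% of all 32851 promoter windows of this length), the E-prime box CACGTT (3.85%), the D-box TTATGTAA (0.819%) and the cyclic AMP response element TGACGTCA (1.55%). A match occurred in 1 of the 8 windows, an E-box that begins 66 bases before the start of Chrna7. The windows of Chrm3, Chrna4 and Chrnb4 lay wholly within the RefSeq span of their own gene, so bases before its outermost start were not searched. The windows of the members called at ZT16 against ZT8, and of Chrm2, are shown for comparison, trimmed where an annotated transcript begins further upstream, with the motif in capitals. A match is a description of the letters and not of binding.
Chrna7, chr7:63212570-63212776, minus strand: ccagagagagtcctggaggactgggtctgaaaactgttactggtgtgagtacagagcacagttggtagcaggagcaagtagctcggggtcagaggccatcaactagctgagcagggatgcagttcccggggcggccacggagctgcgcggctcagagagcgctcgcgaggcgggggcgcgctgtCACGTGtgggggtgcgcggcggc
Chrnb2, chr3:89764633-89764882, minus strand: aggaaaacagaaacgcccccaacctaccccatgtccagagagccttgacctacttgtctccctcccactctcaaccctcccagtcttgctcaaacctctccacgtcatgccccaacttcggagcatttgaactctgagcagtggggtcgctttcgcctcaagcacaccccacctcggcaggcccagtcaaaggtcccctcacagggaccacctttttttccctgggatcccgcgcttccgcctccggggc
Chrm2, chr6:36387834-36387990, plus strand: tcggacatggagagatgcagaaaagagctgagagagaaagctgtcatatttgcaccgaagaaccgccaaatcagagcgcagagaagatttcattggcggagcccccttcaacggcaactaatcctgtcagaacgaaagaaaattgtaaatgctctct

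Partners of the receptors were read as lists. Of 8 genes for nicotinic chaperones and Ly6 proteins, which help nicotinic receptors assemble or bind them at the membrane, 2 were enriched over the input (15.2% of all genes were) and 0 depleted (24.3% of all genes), with a median log2 ratio of 0.67 against -0.09 over all genes. Tmem35a, the chaperone also called NACHO, averaged 186 ± 41.2 CPM (SD, n = 18), the input having 58.3, and Lypd6 at 35.2 ± 3.59 against 14.7. Tmem35a was the 1 gene of the 8 called by the cosinor (6.24% of all genes were), with an amplitude of 0.29 and a peak at ZT6.50 (edgeR adjusted p = 0.0441). It was higher at ZT8 than at ZT0 by 0.64 (SE 0.15, edgeR adjusted p = 0.00982) and lower at ZT16 than at ZT8 by a log2 difference of -0.70 (SE 0.15, edgeR adjusted p = 0.00850). Ly6e, a Ly6 family gene, ran opposite to it, with -0.84 at ZT8 against ZT0 (SE 0.18, edgeR adjusted p = 0.00732) and 0.75 at ZT16 against ZT8 (SE 0.18, edgeR adjusted p = 0.0106). In fits that left out 1 library in turn, the cosinor call of Tmem35a held in 6 of 18, with edgeR adjusted p up to 0.133. Its ZT8 against ZT0 call was lost without ZT0 replicate 1 or ZT8 replicate 2 (0.57 and 0.44, edgeR adjusted p = 0.0593 and 0.0888), and its ZT16 against ZT8 call without ZT8 replicate 2 or ZT16 replicate 2 (-0.51 and -0.57, edgeR adjusted p = 0.0679 and 0.0644). Ly6e lost its ZT8 against ZT0 call without ZT8 replicate 2 (-0.63, edgeR adjusted p = 0.0520), and its ZT16 against ZT8 call without ZT8 replicate 2, ZT16 replicate 1 or ZT16 replicate 2 (0.54, 0.69 and 0.71, edgeR adjusted p = 0.0726, 0.0513 and 0.0644). The other 6 genes of the list, among them the α7 chaperone Ric3 (55.0 ± 6.51 CPM) and Lynx1 (625 ± 75.4 CPM, SD, n = 18), were called in neither pair. In each pair 1 of the 8 genes was thus called higher and 1 lower. Of all genes, 18.0% were called in either direction for ZT8 against ZT0 and 16.9% for ZT16 against ZT8.

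Among genes of the C bouton postsynapse, where M2 receptors sit, Nrg1, neuregulin 1, averaged 165 ± 11.7 CPM (SD, n = 18), the input having 69.7, and counted as enriched. Kcnn3, an SK potassium channel gene, was depleted, at 2.19 ± 0.861 CPM against 5.65. Kcnn2, another SK channel gene and the more abundant, was lower at ZT8 than at ZT0 by a log2 difference of -0.54 (SE 0.18, edgeR adjusted p = 0.0441) and higher at ZT16 than at ZT8 by 0.54 (SE 0.18, edgeR adjusted p = 0.0435). With 1 library left out in turn, Kcnn2 was called in 8 of 18 fits for ZT8 against ZT0 and in 5 of 18 for ZT16 against ZT8, and its differences were smallest without ZT8 replicate 2 (-0.37 and 0.37). Nrg1 and Kcnn3 were called in neither pair. Of the 5 genes of this list, 2 were enriched (15.2% of all genes were) and 1 depleted (24.3% of all genes). In each pair 1 of the 5 was called, against 18.0% of all genes for ZT8 against ZT0 and 16.9% for ZT16 against ZT8.

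Along the Gq arm of muscarinic signalling, 1 of 9 genes was enriched over the input, against 15.2% of all genes (Rgs4, a brake on Gq and Gi signalling, at 356 ± 39.6 CPM against 95.7) and 1 depleted, against 24.3% of all genes (Plcb3, a phospholipase C, at 10.4 ± 1.75 CPM against 22.1; SD, n = 18), and the median log2 ratio was 0.12. For ZT8 against ZT0, 1 of 9 was called (18.0% of all genes were). This was Plcb1, another phospholipase C, lower at ZT8 by a log2 difference of -0.28 (SE 0.10, edgeR adjusted p = 0.0494). The call held in 6 of 18 fits with 1 library left out, the difference staying between -0.32 and -0.25. At ZT16 against ZT8, 0 of 9 were called (16.9% of all genes were). Along the Gi arm, 0 of 9 genes were enriched (15.2% of all genes) and 5 depleted, against 24.3% of all genes (Gnai1, Gnai2, Gnai3, the potassium channel gene Kcnj6 and Rgs8), with a median log2 ratio of -1.08. None of the 9 was called by the cosinor (6.24% of all genes), for ZT8 against ZT0 (18.0%) or for ZT16 against ZT8 (16.9%) by edgeR, and the lowest cosinor p was that of Gnao1 (edgeR adjusted p = 0.112). Of 6 genes for receptor desensitisation, 1 was enriched (Arrb2, 15.2% of all genes) and 2 depleted (Arrb1 and Grk3, 24.3% of all genes), with a median log2 ratio of -0.50. By edgeR none of the 6 was called by the cosinor (6.24% of all genes) or among the 6 time points (6.74%). Nor was any called for ZT8 against ZT0 (18.0%) or for ZT16 against ZT8 (16.9%). The lowest cosinor p in that list was that of Grk6, a G protein-coupled receptor kinase (edgeR adjusted p = 0.126).

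Genes whose log2 level most resembled each member over the 18 HA-IP libraries were sought among 10363 genes with a mean of at least 5 CPM. For Chrm2 these were Map2 (Pearson's r = 0.93) and Vps35 (0.93), for Chrnb2 Rabl6 (0.93) and Smarca4 (0.92), for Chrm4 Clcn7 (0.91) and Cstf1 (0.90), and for Chrna4 Fam220a (0.87) and Rnf121 (0.86). The likeness was weaker for Chrna7 (Me3, 0.85, and Ldhd, 0.74), Chrna3 (Tut1, 0.74, and Cul4a, 0.72) and Chrm3 (Gnl3, 0.71, and Tm7sf3, 0.70). Each value is the highest among 10363 and is a description, since the libraries share depth, time point and the leading axis. Between members, r ran from -0.32 (Chrm3 and Chrna3) to 0.68 (Chrm4 and Chrnb2), and Chrna4 and Chrnb2, whose products assemble, had an r of 0.41.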

How the data were processed

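Reads were, per the labels and methods, aligned with STAR 2.7.5 to mm10 and quantified with RSEM on Ensembl annotations. The authors deposited expected counts per gene, not normalized, of which 1.9% to 3.68% per library were not whole, and these were rounded here. The strand setting of the counting is not given in the sources used here. Coordinates and exon lengths are those of GENCODE M21, matched by symbol.

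Filtering (filterByExpr), TMM scaling and quasi-likelihood tests used edgeR 4.0.16 under R 4.3.3, in 1 fit over the 18 HA-IP libraries. The filter kept 15572 of 25601 genes with a count, and the common coefficient of variation between replicates was 19.2%. Models were a 24-h cosinor, the 6 time points and their 15 pairs, adjusted by the Benjamini-Hochberg method at 0.05 over all genes, beside JTK_Cycle with an exact null. Levels are CPM on TMM sizes of all 19 libraries. Standard errors follow from the F statistic. The input comparison held genes with at least 10 input counts or past the filter. The cosinor, the test among the 6 time points and JTK_Cycle were tried on simulated data with 24-h curves.

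Named genes were the 9 members, 12 further receptor genes, 5 partner lists, markers of 8 cell types and the 2 genes most like each member. Some genes of the lists are not reported here. Members and lists were chosen with earlier results of these data known. Alternatives were DESeq2 1.42.0 (size factors, test), library totals, filters of 10 or 1 counts, an oligodendrocyte score, a replicate block and left-out libraries.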

Additional observations from a re-analysis of the deposited data

How the results depend on the processing

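The counts of members called moved with several settings. Members called at ZT16 against ZT8 were 2 in the reported fit, 1 (Chrna7) with DESeq2 size factors or a filter of 10 counts, 1 (Chrnb2) with the DESeq2 test, which gave Chrna7 no adjusted p, and 2 with a filter of 1 count or the oligodendrocyte score, where Chrm2 (edgeR adjusted p = 0.0133 and 0.0227) took the place of Chrnb2 (edgeR adjusted p = 0.0832 and 0.0811). They were 0 to 3 when replicates or libraries were left out. In any pair they were 2, 1 (Chrna7) with DESeq2 size factors or the filter of 10 counts, 3 (Chrm2, Chrna7 and Chrnb2) with library totals, 2 with the filter of 1 count or the oligodendrocyte score (Chrm2 and Chrna7) and with the DESeq2 test (Chrm2 and Chrnb2), and 0 to 4 with left-out libraries. ZT8 against ZT0 gave 1 (Chrm2) in place of 0 with library totals, a filter of 1 count, the oligodendrocyte score or the DESeq2 test, and 0 to 4 with left-out libraries. The 6 time points gave 1 (Chrm2) in place of 0 with the filter of 1 count, where 2767 genes were called in place of 1050. With left-out replicates or libraries the 6 time points gave 0 to 1, and the cosinor 0 to 1. Over all genes, those fits called 0 to 2454 among the time points and 0 to 2668 in the cosinor. JTK_Cycle gave 1 (Chrnb2) in place of 0 when adjusted within the gene alone, and stayed at 0 otherwise. Enrichment gave 1 (Chrnb2) in place of 0 at a 1.5-fold threshold, and depletion 5 to 6 with left-out libraries. Over all genes, DESeq2 called 2312 in place of 972 in the cosinor, 2502 in place of 1050 among the time points and 1122 in place of 0 at ZT20 against ZT8. The differences followed through the alternatives (Chrm2, Chrna7 and Chrnb2 at ZT16 against ZT8 and ZT8 against ZT0, Chrm4 at ZT8 against ZT0 and Chrm3 at ZT20 against ZT8) kept their sign. So did those of Tmem35a, Ly6e, Kcnn2 and Plcb1, whose alternatives were chosen after seeing the data.

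With the replicate number as a block, Chrna7 was called at ZT16 against ZT8 (edgeR adjusted p = 0.0397) and Chrnb2 was not (edgeR adjusted p = 0.0603), which left 1 member there and 1 in any pair. Libraries with the same number did not deviate together (correlations of deviations from time point means -0.151 to 0.176, with 4 of 45 over 0.1, against -0.21 to 0.183 between other numbers), so the number was not taken to pair them, and the block changed no other call of a member.

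With 1 input library, ratios to the input have no replicate error on that side. The low counts of Chrm1, Chrm4, Chrna3, Chrna7 and Chrnb4 limit the precision of their values, and the cause of the calls that moved was not tested.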
